A study of Mus musculus with 6 samples.

Results

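Flk1+ mesodermal cells that carry a knockout of Scl were compared with wild-type Flk1+ cells that had switched Scl on. Scl is the protein of the gene Tal1, and Flk1 is the protein of Kdr. The comparison used 4 of the 6 Affymetrix mouse arrays of the series, 2 labelled SclKO and 2 labelled WT Flk+Scl+, called WT Scl+ here. It covered the 34945 of 45101 probe sets that are annotated with a single gene symbol. The other 2 arrays, WT Scl-, entered the estimate of the spread, and their levels are given beside the compared groups.

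The WT Scl+ cells came from a reporter ES (embryonic stem) cell line derived from the line R1, of strain (129/Sv x 129/Sv-CP)F1, in which human CD4 had been knocked into the Scl locus. They were sorted as Flk1+ hCD4+, and the WT Scl- cells, of the same line, as Flk1+ hCD4-. The SclKO cells came from a line derived from J1, of strain 129S4/SvJae, and the protocol states that they were sorted on Flk1 alone, although their titles carry the word Scl-. All cells were taken from day 4 embryoid bodies (aggregates in which ES cells form early germ layers), after 2 days in a preparatory medium and plating of 100000 cells per well. Genotype, ES line and sort gate therefore changed together, and their parts in any difference below cannot be told apart. The knock-in puts human CD4 at the locus whose transcript is measured. No label states the number of clones of either line or that replicates are separate cultures, so each p-value reflects array-to-array spread, which may be technical.

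The Scl protein belongs to the basic helix-loop-helix family of DNA-binding factors. It pairs with E proteins, binds E-box motifs in DNA, and joins Gata factors through the adaptors Lmo2 and Ldb1. Embryos without it form no blood, their vessels do not remodel, and Flk1+ mesoderm is the tissue in which it first acts, where blood, endothelial and cardiac fates separate.

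Values are natural logs of the deposited values, and differences are SclKO minus WT Scl+ in log units. The base is not stated: 1 log unit is 2-fold if the natural log is the value that RMA gives in log2, and 2.72-fold if the deposited values are linear. Folds are given under both readings in that order. The deposited values reached 2.823e+06, which is above what a 16-bit scanner can give on a linear scale. The first reading therefore fits these values better than the second, although the base remains unstated. A level under its array's 40th percentile (4.54 to 4.59) is called dim and has no exact value, and a difference "at the limit" sets such levels to that percentile. The number of arrays limits the precision: with 2 arrays against 2, an exact permutation test cannot go below p = 0.333, so tests are limma's moderated test over 23971 probe sets that were not dim on at least 2 of the 6 arrays. A gene above the limit only on its 2 WT Scl+ arrays thus enters as lower in SclKO almost by the filter alone. A gene above it only on the 2 SclKO arrays likewise enters as higher. Every count of lower and higher tested members below carries this limit. WT Scl+ replicate 2 stood apart. It correlated with the other 5 arrays at r between 0.94 and 0.97 across genes, had the highest bioB control (11.11, against 10.20 to 10.69) and the lowest upper quartile (7.18, against 7.28 to 7.34). List medians and counts are therefore also given without it, with the remaining WT Scl+ array assumed to vary like the other groups.

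Tal1, the targeted gene, was at 5.71 and 6.14 on the SclKO arrays, at 8.65 and 8.78 on the WT Scl+ arrays, and at 6.52 and 7.97 on the WT Scl- arrays. The SclKO arrays were the lowest of the 6 and did not overlap either wild-type group, but both lay above the dim limit. Tal1 was lower in SclKO by 2.79 log units (SE 0.45, limma adjusted p = 0.126), which is 6.91-fold or 16.2-fold. Whether the probe set lies inside the deleted part of the gene is not stated in the labels. Kdr, which encodes the sorted receptor, was at 11.16 and 10.83 in SclKO and at 11.35 and 10.86 in WT Scl+. The groups overlapped, the difference was -0.11 (SE 0.22, limma adjusted p = 0.859), and Kdr was among the brighter genes on every array.

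Of 23971 probe sets tested, 2 passed an adjusted p under 0.05 (0.00834%), 1 lower and 1 higher in SclKO (0.00417% each). The probe set that fell reads Gm6958, a predicted gene on chromosome 16. Its level was 7.28 and 7.11 in SclKO, 11.38 and 11.26 in WT Scl+, and 11.27 and 11.10 in WT Scl-. Both wild-type groups lay together and both SclKO arrays far below them (difference -4.12, SE 0.16, limma adjusted p = 0.00391). The other tested probe set of Gm6958, which has the higher mean level over the 6 arrays, differed by -1.63 and was not called. The call thus rests on the less bright of 2 probe sets that differ in size. The probe set that rose reads Cdkn1c, an inhibitor of cyclin-dependent kinases expressed from the maternal chromosome, on chromosome 7. It was at 7.80 and 7.31 in SclKO, at 3.69 and 3.62 in WT Scl+, and at 3.56 and 3.64 in WT Scl-. The wild-type arrays were all dim, so the measured difference of 3.90 (SE 0.20, limma adjusted p = 0.0103) is 3.00 at the limit, which is at least 8-fold or 20.1-fold. Cdkn1c thus passed the filter through its SclKO arrays alone and was bound to be higher, so its call does not test the direction. The lowest adjusted p of the probe sets not called was 0.0861, and at an unadjusted p under 0.01 there were 543 lower (2.27%) and 466 higher (1.94%). All other differences here are sizes beside an unadjusted p, with calls of p under 0.01 used only as a count. For single genes, each read through its brightest probe set, that count was 311 of 12922 lower (2.41%) and 228 higher (1.76%), and the median of all differences was 0.04. The SclKO and WT Scl+ arrays did not overlap for 20.2% of genes in the lower and 23.2% in the higher direction, and 44.5% of all differences were below 0. Without WT Scl+ replicate 2 the counts over all genes were 6630 lower and 6292 higher, with 251 (1.94%) and 146 (1.13%) at p under 0.01 and a median of -0.0090.

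**Figure D1:**
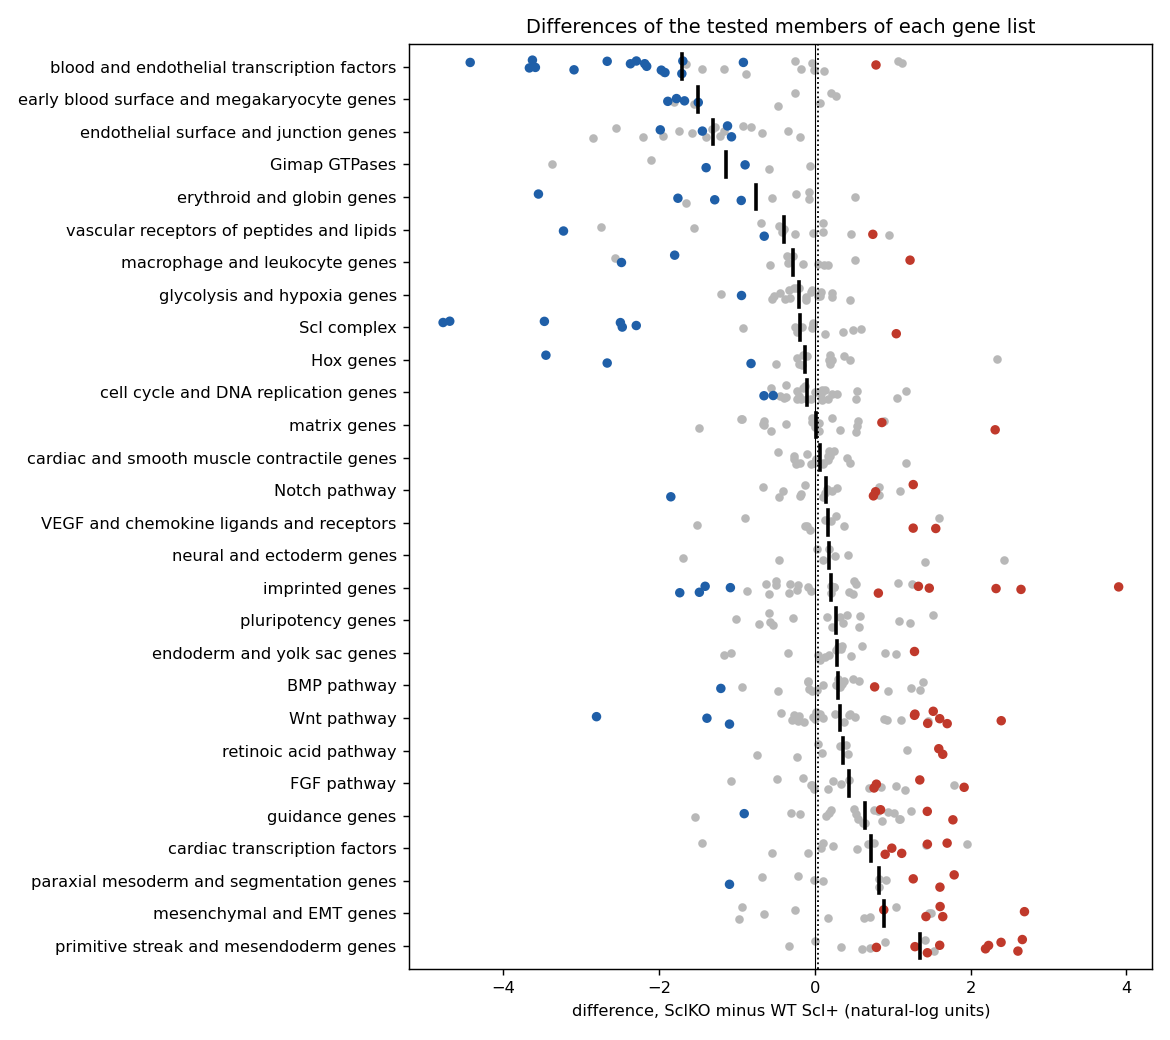
Each row is a gene list, each point a tested member, and the horizontal axis is the difference SclKO minus WT Scl+ in natural-log units. Blue and red points have an unadjusted p under 0.01 (lower and higher), black bars are list medians, and the dotted line is the median of all genes, 0.04. The blood and endothelial transcription factors have the lowest median (-1.70) and the primitive streak genes the highest (1.35).

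Among the partners and cofactors of Scl, the largest differences belonged to Cbfa2t3, Tal2, Lyl1, Gata1, Gfi1b and Gata2, all lower in SclKO. Of 18 listed, all tested, 13 were lower and 5 higher (9 and 4 without overlap), with 6 lower and 1 higher at p under 0.01, and the median was -0.19 (-0.13 without WT Scl+ replicate 2, with 5 and 1). Cbfa2t3, a corepressor that binds the Scl complex, was at 3.86 and 4.85 in SclKO against 8.54 and 9.71 in WT Scl+ (difference -4.77, SE 0.73, limma adjusted p = 0.121). This value belongs to 1 probe set, and the other 3 tested for Cbfa2t3 differed by -0.76, -0.42 and -0.94. Tal2, a close relative of Scl, was dim in SclKO at 4.00 and 3.57 and stood at 8.26 and 8.67 in WT Scl+ (difference -4.68, SE 0.82, limma adjusted p = 0.135). Its difference was -3.90 at the limit, and its other probe set differed by -1.34. Lyl1, the other close relative, was at 4.06 and 4.23 against 7.36 and 7.87 (difference -3.47, or -3.05 at the limit). Both relatives were thus dim on both SclKO arrays and far above the limit on both WT Scl+ arrays.

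Gata1, the erythroid Gata factor, was dim in SclKO at 4.11 and 4.46 and was at 7.48 and 6.08 in WT Scl+. Gfi1b, a repressor needed in erythroid cells and megakaryocytes, was dim at 4.27 and 4.00 against 6.74 and 6.46 (difference -2.47, SE 0.24, limma adjusted p = 0.0981). Gata2, which acts in early blood progenitors, was at 7.06 and 7.04 against 9.22 and 9.46 (difference -2.29), with the WT Scl- arrays far apart at 6.59 and 8.42. For Gata1, Gfi1b and Gata2 the SclKO arrays did not overlap the WT Scl+ arrays, while for Gata2 they lay between the WT Scl- arrays. Lmo2, the adaptor between Scl and Gata factors, was high on all arrays, at 10.32 and 11.37 against 11.65 and 11.88 (difference -0.92, unadjusted p = 0.231). The E proteins Tcf3 and Tcf12 differed by -0.04 and -0.16 at their brightest probe sets, but the other probe sets were positive, at 0.34 and 0.15 for Tcf3 and at 0.06, 0.19 and 0.70 for Tcf12. Tcf4, the third E protein, was at 9.23 and 9.04 against 8.75 and 8.78 (difference 0.37, unadjusted p = 0.0655), with all 5 probe sets higher. The scaffold Ldb1 (-0.22), its stabiliser Ssbp2 (-0.02) and the Gata cofactor Zfpm1 (-0.02) had small differences. Ssbp3, a relative of Ssbp2, and the LIM-only factor Lmo4 were higher by 0.60 and 0.49 without overlap, with unadjusted p of 0.0627 and 0.0708. Gata3 was the member with a positive difference at p under 0.01, at 7.11 and 6.93 against 5.91 and 6.03 (difference 1.05).

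The proximal promoters of Tal1 and of 3 genes that were lower in SclKO without overlap are shown because Scl complexes are known to bind E-box and GATA motifs. None of these genes was called at an adjusted p under 0.05. They are the 250 bases upstream of the RefSeq start, assembly GRCm38.p6, on the strand of the gene. Capitals mark an E-box (CANNTG) or a GATA motif (AGATAA or TGATAA), searched on both strands. Tal1 is at chr4:115056176-115056425, plus strand, Lyl1 at chr8:84701207-84701456, plus strand, Gfi1b at chr2:28621983-28622232, minus strand, and Itga2b at chr11:102469884-102470133, minus strand.
Tal1: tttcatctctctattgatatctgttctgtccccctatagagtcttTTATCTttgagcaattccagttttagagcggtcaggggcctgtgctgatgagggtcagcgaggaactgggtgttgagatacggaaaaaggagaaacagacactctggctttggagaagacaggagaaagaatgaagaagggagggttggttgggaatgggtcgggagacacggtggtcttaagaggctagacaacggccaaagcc
Lyl1: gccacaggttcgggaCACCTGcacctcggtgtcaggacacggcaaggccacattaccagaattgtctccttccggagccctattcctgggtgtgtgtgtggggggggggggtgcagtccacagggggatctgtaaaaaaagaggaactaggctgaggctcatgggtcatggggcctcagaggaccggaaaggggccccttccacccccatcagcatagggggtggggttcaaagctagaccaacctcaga
Gfi1b: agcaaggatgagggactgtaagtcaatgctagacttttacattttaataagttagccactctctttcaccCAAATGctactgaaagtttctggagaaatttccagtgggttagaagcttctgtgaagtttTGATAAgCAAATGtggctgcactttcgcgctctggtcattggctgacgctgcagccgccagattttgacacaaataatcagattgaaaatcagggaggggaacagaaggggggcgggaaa
Itga2b: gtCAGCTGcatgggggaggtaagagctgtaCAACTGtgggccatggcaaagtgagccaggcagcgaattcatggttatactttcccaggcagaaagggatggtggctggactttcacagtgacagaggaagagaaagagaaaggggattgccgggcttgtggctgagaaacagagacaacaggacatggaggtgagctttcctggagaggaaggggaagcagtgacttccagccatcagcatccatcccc

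The Tal1 promoter shown holds 1 GATA motif and no E-box, and the second RefSeq promoter of Tal1, at chr4:115057561-115057810, plus strand, holds neither. Lyl1 holds 1 E-box, Gfi1b holds 2 E-boxes and a GATA motif beside the second, and Itga2b holds 2 E-boxes. The promoters of Gata1 and Eomes, not shown, hold 1 E-box and neither motif. These motifs are short and common: of 32851 mouse promoters of this length, 66.2% hold an E-box, 16.6% a GATA motif and 11.8% both. Among the blood and endothelial transcription factors, 43.3% of 30 promoters hold an E-box and 10% a GATA motif. Among the primitive streak genes the shares are 61.1% and 16.7% of 18 promoters. The E-box shares of both lists are under that of all promoters, and a match in these windows is only a description.

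Transcription factors of the blood and endothelial programmes were lower in SclKO across most of the list. All 28 listed were tested: 24 were lower and 4 higher, 15 lower and 1 higher at p under 0.01, and the median was -1.70. Without WT Scl+ replicate 2 the counts were 23 lower and 5 higher, 8 of the lower at p under 0.01, and the median -1.63. Myb, which blood progenitors need, was dim in SclKO at 4.10 and 4.48 and was at 8.80 and 8.62 in WT Scl+ (difference -4.42, SE 0.76, limma adjusted p = 0.135, or -4.14 at the limit). Its other probe sets differed by -4.59 and -3.87, so all 3 agreed in size. Ikzf1, a lymphoid and progenitor zinc finger factor, was at 4.49 and 4.88 against 8.31 and 8.38 (difference -3.66, with -1.75 at the second probe set). The Ets factors Fli1 and Erg, shared by blood and endothelium, were at 4.92 and 5.05 against 8.06 and 9.07, and at 5.29 and 6.13 against 8.45 and 9.15. Their differences were -3.58 and -3.09, and second probe sets of Fli1 and Erg gave -3.10 and -2.62. Sox7, an endothelial SoxF factor, differed by -3.62, with -1.14 at its second probe set. In bulk RNA, fewer cells of a type and less RNA per cell cannot be told apart.

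Runx1, which drives the emergence of blood from endothelium, was at 7.10 and 6.78 in SclKO and at 8.79 and 8.47 in WT Scl+ (difference -1.69, limma adjusted p = 0.138). It was above the dim limit on all arrays, and all 6 tested probe sets of Runx1 were lower. Hoxb4, a factor that expands blood progenitors, was at 5.28 and 4.64 against 7.62 and 7.63 (difference -2.66, SE 0.29, limma adjusted p = 0.104). Hhex (-2.29), Ets2 (-2.18), Nfe2 (-2.16), Ets1 (-1.92) and Gfi1 (-2.36) also had p under 0.01. Spi1, the myeloid master regulator, was dim on both SclKO arrays and at 5.17 and 5.56 in WT Scl+ (difference -0.91). Etv2, the Ets factor that specifies Flk1+ cells to blood and endothelium, did not follow them. It was at 11.13 and 11.88 in SclKO and at 10.27 and 10.60 in WT Scl+, without overlap (difference 1.06, SE 0.33, limma adjusted p = 0.273). Bcl11a, a repressor of globin genes, was the member higher at p under 0.01 (difference 0.79), and all 7 of its probe sets were higher.

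**Figure D2:**
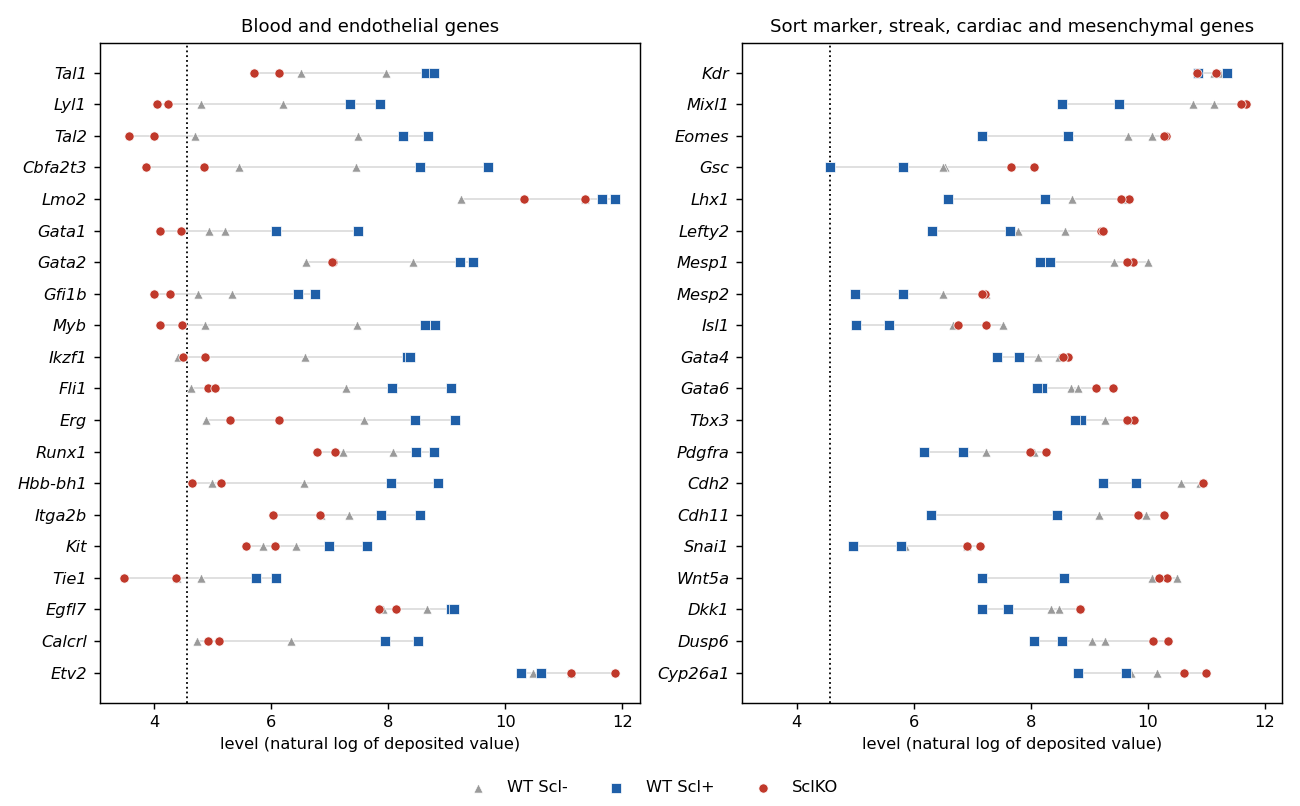
Level on each array as the natural log of the deposited value, for genes chosen with their values in view, with SclKO as red circles, WT Scl+ as blue squares, WT Scl- as grey triangles and the mean dim limit as a dotted line. Tal1 is at 5.71 and 6.14 in SclKO against 8.65 and 8.78 in WT Scl+, most blood and endothelial genes lie to the left in SclKO, and streak, cardiac and mesenchymal genes to the right. The panel of blood genes also shows Etv2, which lies to the right in SclKO.

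Most tested genes of primitive red cells were lower in SclKO. Of 21 listed genes 10 were tested: 9 were lower and 1 higher, 4 lower at p under 0.01 (5 without WT Scl+ replicate 2), with a median of -0.75 (8 lower, 2 higher and -0.63 without WT Scl+ replicate 2). Hbb-bh1, an embryonic beta-like globin, was at 5.15 and 4.65 in SclKO, 8.85 and 8.04 in WT Scl+, and 4.99 and 6.55 in WT Scl-. The SclKO arrays were near the dim limit, and the difference was -3.54 (SE 0.54, limma adjusted p = 0.121), with -3.83 and -5.13 at the other 2 probe sets. Hba-x, the embryonic alpha-like globin, was dim in SclKO and at 5.72 and 5.18 in WT Scl+ (difference -1.28, or -0.89 at the limit). Hba-x was also dim on both WT Scl- arrays, so it passed the filter through WT Scl+ alone and was bound to be lower. Gypc, a red cell membrane protein, was lower by 1.75, and Alas2, the erythroid enzyme of haem synthesis, by 0.94. Klf1, the erythroid master factor, was at 4.45 and 4.63 against 7.15 and 5.24, with the WT Scl+ arrays nearly 2 log units apart (difference -1.66, unadjusted p = 0.0288). Hbb-y was dim on all 4 arrays. Tfrc, the transferrin receptor of all dividing cells, differed by -0.08.

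Surface and signalling genes of the first blood cells showed the same order of groups. Of 20 listed genes 11 were tested, 8 lower and 3 higher, with 4 lower at p under 0.01, and a median of -1.49 (-1.17, with 7 lower, 4 higher and 2 at p under 0.01, without WT Scl+ replicate 2). Itga2b, the CD41 integrin that marks the earliest blood progenitors, was at 6.03 and 6.84 against 7.87 and 8.54 (difference -1.77, limma adjusted p = 0.159). Kit, the stem cell factor receptor, was at 5.58 and 6.06 against 6.99 and 7.64 (difference -1.49). Plek, a protein kinase C substrate of platelets and leukocytes, was dim in SclKO at 3.91 and 4.02 and stood at 5.84 and 5.87 in WT Scl+ (difference -1.88, SE 0.20). All of these were without overlap, while the platelet glycoproteins Gp9 and Gp1bb (0.21 and 0.06) overlapped. Alox5ap, another member counted as lower, passed the filter through its WT Scl+ arrays alone.

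Macrophage and leukocyte genes were mixed, with 8 lower and 5 higher of 13 tested among 19, and a median of -0.28 (-0.0081, with 7 and 6, without WT Scl+ replicate 2). Mpo, the peroxidase of myeloid granules, was at 4.34 and 5.24 against 7.06 and 7.48 (difference -2.48), and Was, an actin regulator of blood cells, was lower by 1.80. Csf1r, the macrophage growth factor receptor, overlapped between the groups (difference -0.15). Adgre1, which defines mature macrophages, was dim on all 4 arrays. Ctsc, a lysosomal protease, was higher by 1.22.

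Endothelial surface and junction genes were lower in SclKO in 20 of 20 tested members of 27 listed, and 18 of them were without overlap, but the arrays spread widely. The median was -1.30, 4 members had p under 0.01, and without WT Scl+ replicate 2 all 20 were still lower with a median of -1.02 and 1 at p under 0.01. Tek, the angiopoietin receptor, was at 5.78 and 7.20 in SclKO, 8.92 and 9.75 in WT Scl+, and 3.94 and 8.24 in WT Scl-. Its difference was -2.84 with an SE of 1.31, the WT Scl- arrays lay far apart, and the limma adjusted p was 0.416. Tie1, the related orphan receptor, was dim in SclKO at 3.49 and 4.37 and at 5.75 and 6.08 in WT Scl+ (difference -1.98, SE 0.32, limma adjusted p = 0.128, or -1.35 at the limit). The junction genes Esam (-2.55), Pecam1 (-2.20) and Cdh5 (-1.75) were lower without overlap and had unadjusted p from 0.0175 to 0.0480. Egfl7, a secreted endothelial protein, was at 7.84 and 8.14 against 9.08 and 9.13 (difference -1.12), and all 4 of its probe sets were lower. Some endothelial genes lay above the dim limit on both SclKO arrays, such as Pecam1 at 4.72 and 5.30 and Cdh5 at 5.82 and 6.77, unlike Tie1. That limit is a percentile of each array and not a detection call. Replicate 2 was the higher of the SclKO arrays for Tek, Tie1, Pecam1 and Cdh5. Cd93 differed by -0.18 at its brightest probe set and by -2.00, -1.49 and -2.80 at the other 3.

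The Gimap GTPases, small GTPases of lymphocytes and early vessels that lie in 1 cluster on chromosome 6, were lower in 6 of 6 tested members of 8, with 2 at p under 0.01 and a median of -1.14 (5 of 6, 1 and -1.01 without WT Scl+ replicate 2). Gimap4 was dim in SclKO at 3.21 and 3.88 and was at 6.32 and 7.49 in WT Scl+ (difference -3.36, or -2.34 at the limit), with the WT Scl- arrays at 2.18 and 5.60. Gimap3 overlapped between the groups (difference -0.07).

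Among receptors that vessels use for peptides and lipids, 15 of 20 were tested, with 10 lower and 5 higher and a median of -0.39 (-0.07, with 11 and 4, without WT Scl+ replicate 2). Calcrl, the receptor for adrenomedullin, was at 4.92 and 5.10 against 7.95 and 8.51 (difference -3.22, SE 0.50, limma adjusted p = 0.121). Its accessory protein Ramp2 was at 7.26 and 7.97 against 9.93 and 10.78 (difference -2.74). The adrenomedullin gene itself, Adm, overlapped between groups (-0.52). Aplnr, the apelin receptor of mesoderm, was high in both groups and differed by -0.65. Of the VEGF and chemokine genes, 12 of 14 were tested, 5 lower and 7 higher with a median of 0.17 (4, 8 and 0.29 without WT Scl+ replicate 2). Flt1, the decoy VEGF receptor, was lower by 1.51 (unadjusted p = 0.0467). Cxcr4, a chemokine receptor of migrating mesendoderm, was at 11.51 and 11.45 against 10.54 and 9.32 (difference 1.55), and the ligand gene Vegfc was higher by 1.26.

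The other direction was led by genes of the primitive streak, the structure from which mesoderm and endoderm form. Of 22 listed genes 18 were tested, 17 were higher and 1 lower, 16 higher without overlap and 9 higher at p under 0.01, with a median of 1.35. Without WT Scl+ replicate 2 the median was 0.77, with 17 higher and 7 at p under 0.01. Mixl1, a homeobox factor of the streak, was at 11.67 and 11.59 in SclKO, 9.51 and 8.54 in WT Scl+, and 11.13 and 10.76 in WT Scl- (difference 2.61, SE 0.33, limma adjusted p = 0.121). Eomes, a T-box factor that opens mesendoderm and cardiac fates, was at 10.30 and 10.27 against 8.63 and 7.16, with WT Scl- at 10.07 and 9.66 (difference 2.39, SE 0.46). Gsc, a homeobox gene of the organiser, was at 7.67 and 8.05 against 5.82 and 4.57 (difference 2.66, SE 0.40). The SclKO replicates lay close together for these genes and the WT Scl+ replicates about 1 log unit or more apart, with replicate 2 the lower.

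Lefty2, a Nodal antagonist, was higher by 2.23 and Lhx1, a LIM homeobox gene of early mesoderm, by 2.19, or by 1.56 and 1.36 without WT Scl+ replicate 2. Sp5, a target of Wnt signalling, was higher by 1.60, Tdgf1, the Nodal coreceptor, by 1.54, and Wnt3 by 1.29. Mesp1, the factor that marks the first cardiac and vascular mesoderm, was at 9.74 and 9.64 against 8.16 and 8.33, with WT Scl- at 10.01 and 9.43 (difference 1.45, SE 0.23, limma adjusted p = 0.121). For Mesp1 both WT Scl+ arrays lay together, and the difference was 1.53 without replicate 2. Chrd (-0.33) and Wnt3a (0.01) overlapped between the groups.

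Paraxial mesoderm and segmentation genes were mixed, with 7 higher and 4 lower of 11 tested among 19 and a median of 0.82 (6, 5 and 0.65 without WT Scl+ replicate 2). Mesp2, needed for somite borders, was at 7.22 and 7.17 against 5.81 and 5.002 (difference 1.79), Dll3, a Notch ligand of the presomitic mesoderm, at 7.29 and 7.43 against 6.17 and 6.02 (difference 1.26, SE 0.16), and Pcdh8, a protocadherin of the same tissue, was higher by 1.61. All of these were without overlap, while Msgn1, a master gene of presomitic mesoderm, overlapped (difference -0.0033).

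Cardiac transcription factors were higher in 13 of 16 tested members of 20 and lower in 3, with 5 higher at p under 0.01 and a median of 0.72 (0.41, with 12 of 16 higher and 2 at p under 0.01, without WT Scl+ replicate 2). Isl1, which marks progenitors of the second heart field, was at 7.23 and 6.75 against 5.57 and 5.01 (difference 1.70, SE 0.35). Gata6 was at 9.11 and 9.41 against 8.19 and 8.10 (difference 1.12, SE 0.17, limma adjusted p = 0.121), and Gata4, at 8.63 and 8.56 against 7.79 and 7.41, was higher by 0.99. Tbx3, a T-box factor of the conduction system, was higher by 0.90. The list also holds Mesp1. Some cardiac transcription factors did not follow: Nkx2-5 was near the dim limit on all 4 arrays (difference 0.11), Hand2 differed by -0.54 (its other 2 probe sets were higher), and Mef2c by -1.45. Of 20 contractile genes tested of 24, 12 were higher and 8 lower, with 0 at an unadjusted p under 0.01 in limma and a median of 0.06. This turned to 8 higher and 12 lower without WT Scl+ replicate 2, with a median of -0.055. Myl7, the atrial light chain, was at 7.88 and 7.64 against 7.06 and 6.10, with WT Scl- at 8.40 and 7.61 (difference 1.18, unadjusted p = 0.0217).

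Mesenchymal genes and genes of the epithelial-mesenchymal transition were higher in 11 of 15 tested members of 18 and lower in 4, with 5 higher at p under 0.01 and a median of 0.89 (0.45, with 10 of 15 higher and 3 at p under 0.01, without WT Scl+ replicate 2). Pdgfra, a receptor of paraxial and cardiac mesoderm, was at 8.25 and 7.99 against 6.85 and 6.18, with WT Scl- at 8.05 and 7.23 (difference 1.61, SE 0.34). Cdh2, the cadherin of mesoderm and heart, was at 10.94 and 10.93 against 9.79 and 9.24 (difference 1.43, SE 0.23, limma adjusted p = 0.126). Cdh11, another mesenchymal cadherin, was at 10.28 and 9.83 against 8.44 and 6.29 (difference 2.69, or 1.61 without WT Scl+ replicate 2). Snai1, a repressor of epithelial genes, was higher by 1.64 and Twist1 by 0.89. Zeb1 (-0.65) and Zeb2 (-0.94), repressors with a similar target set, lay on the other side without overlap, as did the endothelial growth factor gene Pdgfb (-0.97).

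**Figure D3:**
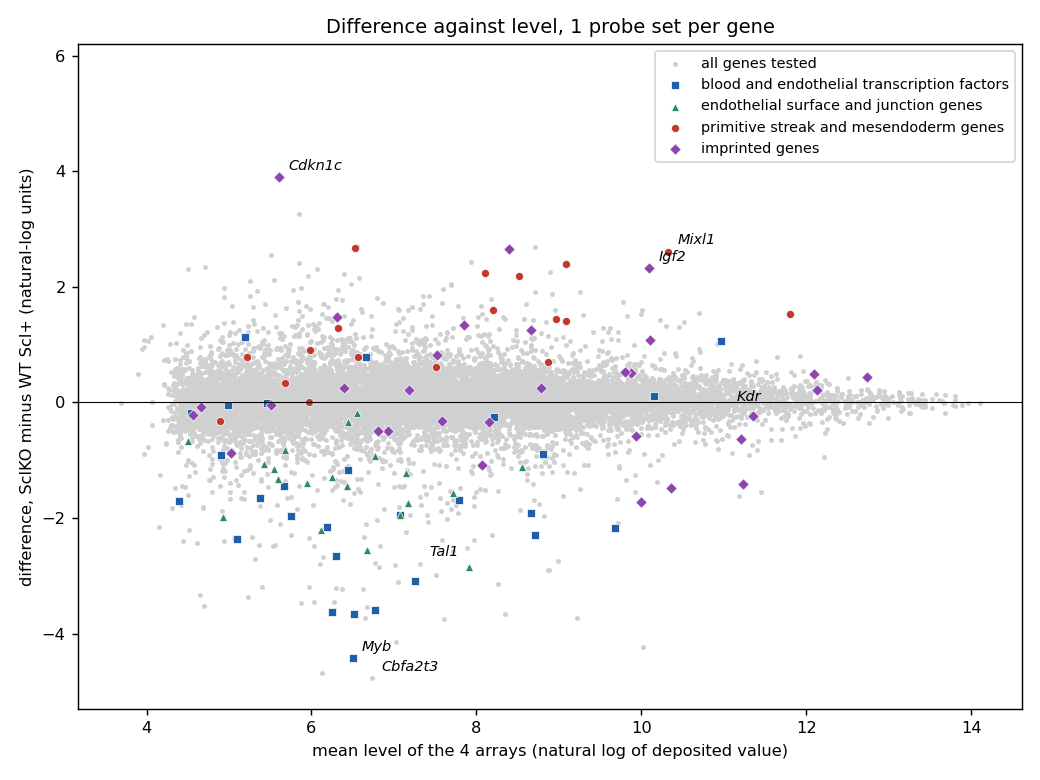
Difference SclKO minus WT Scl+ (vertical, natural-log units) against the mean level of the 4 arrays (horizontal, natural log of the deposited value) for 12922 genes, 1 probe set each. Blue, green, red and purple symbols are the blood and endothelial transcription factors, endothelial genes, streak genes and imprinted genes; Cdkn1c is at 3.90 and Myb at -4.42.

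Genes of signalling pathways lay in both directions. Of 30 Wnt genes tested of 31, 20 were higher and 10 lower, 7 higher and 3 lower at p under 0.01 (median 0.32). Without WT Scl+ replicate 2 there were 19 higher and 11 lower, 5 and 2 at p under 0.01 (median 0.28). The non-canonical ligand Wnt5a was at 10.33 and 10.19 against 8.57 and 7.17 (difference 2.39, SE 0.44), and all 4 of its probe sets were higher. The relative Wnt5b was higher by 1.70 and the receptor Fzd7 by 1.52. Dkk1, a secreted Wnt inhibitor, was at 8.84 and 8.84 against 7.61 and 7.17 (difference 1.45, SE 0.19, limma adjusted p = 0.121). Frzb, a secreted Wnt antagonist outside the list, was at 8.13 and 7.68 against 6.03 and 4.36 (difference 2.71). Lgr5, a receptor for R-spondins, was in the opposite direction, at 4.87 and 4.53 in SclKO, 7.55 and 7.45 in WT Scl+ and 5.50 and 6.55 in WT Scl- (difference -2.80, SE 0.35, limma adjusted p = 0.121). The ligand of Lgr5, Rspo3, was lower by 1.09 and the receptor Fzd10 by 1.38, although the second probe set of Fzd10 differed by 0.35.

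Of 19 FGF genes tested of 21, 13 were higher and 6 lower, with 4 higher at p under 0.01 (median 0.44). There were 11 higher and 8 lower without WT Scl+ replicate 2, with 2 higher at p under 0.01 (median 0.21). Dusp6, a phosphatase induced by FGF and ERK signalling, was at 10.08 and 10.34 against 8.54 and 8.05, with WT Scl- between them at 9.27 and 9.05 (difference 1.92, SE 0.22, limma adjusted p = 0.121). Spry4, an inhibitor induced by the same pathway, was higher by 1.35, and the ligand genes Fgf8 and Fgf10 by 0.79 and 0.76. Of 10 retinoic acid genes tested of 16, 8 were higher, with a median of 0.37 (9 and 0.24 without WT Scl+ replicate 2). They include Cyp26a1, which degrades retinoic acid, at 11.00 and 10.62 against 9.62 and 8.81 (difference 1.59), and the binding protein gene Crabp2 (1.64). Of 21 BMP genes tested of 23, 14 were higher and 7 lower, also without WT Scl+ replicate 2, where the median went from 0.30 to 0.070. Among them were Id1 higher by 0.77 and Id4 lower by 1.20 at p under 0.01, and the ligand gene Bmp4 at 0.38 with overlap. Of 18 Notch genes tested of 20, 11 were higher and 7 lower (median 0.15), or 9 and 9 without WT Scl+ replicate 2 (median 0.0023). Hey2, a Notch target of arterial and cardiac cells, was at 6.02 and 5.89 against 7.47 and 8.14 (difference -1.85), while the related Hey1 was at 10.66 and 10.55 against 9.85 and 9.85 (difference 0.75). Hey1 and Hey2 thus lay on opposite sides, both without overlap.

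Guidance genes, whose ligands and receptors steer axons and vessels, were higher in 19 of 23 tested members of 27 (median 0.65, 3 higher and 1 lower at p under 0.01), or in 20 of 23 without WT Scl+ replicate 2 (median 0.48, 2 and 1). Efnb3 was at 7.27 and 7.24 against 5.80 and 5.16 (difference 1.77, SE 0.24) and Robo1, a Slit receptor, was higher by 1.45. Efnb2, the arterial ephrin, was the member lower at p under 0.01, at 9.92 and 9.69 against 10.78 and 10.64 (difference -0.90, SE 0.17), with all 4 probe sets lower. Matrix genes had a median of 0.01, with 13 of 23 tested of 27 higher and 10 lower, which turned to 9 higher and 14 lower without WT Scl+ replicate 2 (median -0.076). The basement membrane genes Col18a1 (-1.48), Col4a2 (-0.95), Nid1 (-0.93) and Col4a1 (-0.67) were lower without overlap with unadjusted p from 0.0376 to 0.0940. The second probe set of Nid1 differed by only -0.26. Other basement membrane genes did not move together: Lama4 differed by -0.65 and Nid2 by 0.22. Hspg2 (-0.04), Lamb1 (0.0052), Lama5 (0.02), Col4a5 (0.06) and Lamc1 (0.06) had small differences at their brightest probe sets. Lama1, of the embryonic basement membrane, was higher by 0.86, and Col4a6 by 2.32, or 1.11 at the limit. Col4a6 was dim on all wild-type arrays, so it passed the filter through SclKO alone and was bound to be higher.

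Imprinted genes, expressed from 1 parental chromosome, lay in both directions and held several of the smallest p-values. Of 31 tested of 35, 16 were higher and 15 lower (median 0.21), with 6 higher and 4 lower at p under 0.01. The 1 called was Cdkn1c, which passed the filter through its SclKO arrays alone. There were 17 higher and 14 lower without WT Scl+ replicate 2, 5 and 3 at p under 0.01 (median 0.13). Igf2, the growth factor gene at the same distal end of chromosome 7, was at 11.49 and 11.03 in SclKO, 8.92 and 8.95 in WT Scl+, and 8.59 and 8.75 in WT Scl- (difference 2.33, SE 0.20, limma adjusted p = 0.0861). Phlda2, of the same domain as Cdkn1c, was at 10.00 and 9.43 against 7.49 and 6.65, with WT Scl- at 9.03 and 8.35 (difference 2.65, SE 0.38). For Cdkn1c and Igf2 both wild-type groups lay together far below SclKO, whereas the WT Scl- arrays of Phlda2 lay nearer to SclKO than to WT Scl+. Kcnq1ot1, the non-coding RNA of the domain of Cdkn1c and Phlda2, was at 8.03 and 7.94 against 8.46 and 8.17 (difference -0.33, unadjusted p = 0.143).

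The maternally expressed non-coding RNAs of the imprinted domain on chromosome 12 lay in the opposite direction. Meg3 was at 9.55 and 9.68 in SclKO, 11.12 and 11.07 in WT Scl+, and 11.03 and 11.19 in WT Scl- (difference -1.48, SE 0.16, limma adjusted p = 0.104), and all 11 tested probe sets of Meg3 were lower. Rian, of the same domain, was at 8.87 and 9.39 against 10.66 and 11.07, with WT Scl- at 10.65 and 10.82 (difference -1.73, SE 0.24). Dlk1, the paternally expressed gene there, was near the dim limit at its brightest probe set (difference -0.08), and its other probe set differed by 1.85. Mest was lower by 1.41 and Ppp1r9a by 1.08, both on chromosome 6, while Igf2r was higher by 1.33, Magel2 by 1.47 and H13 by 0.82. Peg3 (0.44), Peg10 (0.49) and Snrpn (0.25) were nearer to WT Scl+. For Meg3, Rian, Igf2 and Cdkn1c the 4 wild-type arrays of the R1-derived line lay close together although they differ in Scl. These genes separate the lines as completely as they separate the genotypes.

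**Figure D4:**
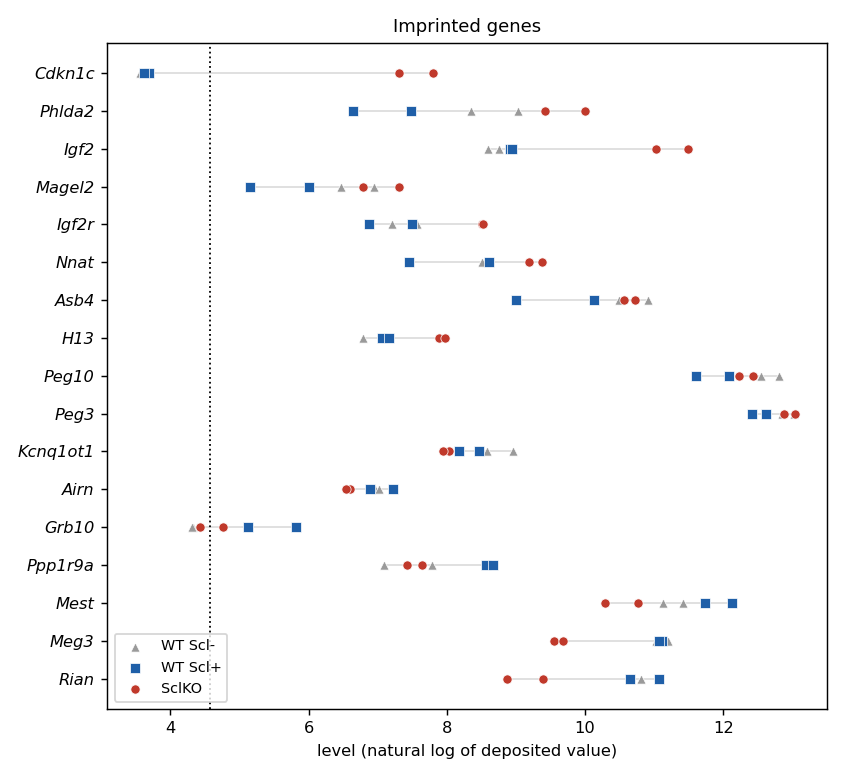
Level of 17 imprinted genes on each array (natural log of the deposited value), with SclKO as red circles, WT Scl+ as blue squares, WT Scl- as grey triangles and the mean dim limit as a dotted line. Cdkn1c and Igf2 lie to the right in SclKO and Meg3 and Rian to the left, with the wild-type arrays of each of these genes close together.

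Of 34 Hox genes 16 were tested, 9 lower and 7 higher with a median of -0.12, or 7 lower and 9 higher without WT Scl+ replicate 2 (median 0.098). The 3 lower at p under 0.01 were Hoxb5, at 4.62 and 3.99 against 8.02 and 7.48 (difference -3.45, or -3.15 at the limit), Hoxb4, and Hoxb2, lower by 0.82. All 3 belong to the Hoxb cluster on chromosome 11, and Hoxb1, at the end of that cluster expressed first, lay in the other direction at 6.13 and 5.63 against 4.82 and 2.27 (difference 2.33, or 1.18 at the limit, unadjusted p = 0.0223). Over chromosome 11 as a whole, the median difference of 1124 genes was -0.15, against 0.03 to 0.08 on the other autosomes and 0.06 on the X chromosome. Median deviations there from the mean of all arrays were -0.087 and -0.11 for SclKO, 0.095 and 0.0095 for WT Scl+, whose replicates differed, and 0.058 and 0.060 for WT Scl-. The differences of Hoxb4, Hoxb5, Ikzf1, Itga2b, Plek and Mpo, which lie on chromosome 11, were also computed with each chromosome's median removed. They were then -2.53, -3.31, -3.52, -1.64, -1.75 and -2.34 in that order, each at an unadjusted p under 0.01 in limma. Such a step shifts a difference only by about the chromosome's median, so differences of this size could change little. Aurkb, a mitotic kinase gene also on chromosome 11 with a smaller difference, went from -0.65 to -0.51 (limma unadjusted p = 0.0148).

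Outside the lists, the 12 largest negative differences at p under 0.01 without overlap included Wnk4, a kinase of ion transport, at 4.51 and 5.40 against 8.98 and 9.21 (difference -4.14), and Tnfaip2, an endothelial and myeloid gene induced by TNF, at 6.72 and 7.98 against 10.77 and 11.39 (difference -3.73, with -2.12 and -1.05 at other probe sets). Ctla2a, a cysteine protease inhibitor, had a difference of similar size (-4.23) but an SE of 1.80 and an unadjusted p of 0.0559. Akap5, an anchoring protein of protein kinase A, was dim in SclKO and lower by 3.33, or 1.74 at the limit. Akap5 was also dim on both WT Scl- arrays, so it passed the filter through WT Scl+ alone and was bound to be lower. The 12 largest positive differences included Tac1, the gene of substance P, at 6.28 and 7.30 against 4.88 and 3.60 (difference 2.55), and Tgfbi, a secreted protein induced by TGF-beta, at 7.02 and 7.10 against 5.07 and 4.23 (difference 2.41), with all 4 probe sets higher.

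Genes of the cell cycle lay on both sides, and those of glycolysis and hypoxia were more often lower. Of 27 cell cycle genes tested of 29, 15 were lower and 12 higher, with a median of -0.10 (also 15 and 12, and -0.055, without WT Scl+ replicate 2). The mitotic genes Aurkb (-0.65) and Top2a (-0.53) were lower at p under 0.01, and the G1 cyclins Ccne1 and Ccne2 were higher by 1.06 and 1.17 (unadjusted p of 0.0142 and 0.0138). The replication genes Mcm2, Mcm5, Mcm6 and Pcna differed by between -0.04 and 0.22 at their brightest probe sets. Their other probe sets were higher, by 0.52 for Mcm2, 0.69 and 0.13 for Mcm5 and 0.36 for Mcm6. Of 21 glycolysis and hypoxia genes tested of 23, 15 were lower and 6 higher, 10 and 4 without overlap (median -0.20), or 14 and 7 without WT Scl+ replicate 2 (median -0.15). Hk1, a hexokinase, had the largest difference, at 5.06 and 5.25 against 6.62 and 6.09 (difference -1.20, unadjusted p = 0.0173), with both probe sets lower. The glucose transporter gene Slc2a3 was at 11.81 and 11.67 against 12.65 and 12.72 (difference -0.95, SE 0.20), with all 4 probe sets lower.

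Markers of other cells that a Flk1 gate could hold also differed between the groups. The mean level of 5 endothelial markers was 4.63 and 5.57 in SclKO and 6.54 and 7.05 in WT Scl+. Of these, Tek, Tie1, Pecam1 and Cdh5, already named above, were lower, while Emcn was higher (0.32) but dim on all 4 arrays. The mean of 4 primitive red cell markers was 4.09 and 4.18 against 6.19 and 5.47, with Hbb-y dim on all 4 arrays. Cardiomyocyte markers were higher in 4 of 4, at a mean of 6.39 and 6.17 against 5.93 and 5.69, but by unequal amounts. Myl7 differed most (1.18), then Myh6 (0.46), while Tnnt2 (0.17) overlapped between the groups and Nkx2-5 (0.11) was near the dim limit. The longer list of contractile genes was mixed, with 12 higher and 8 lower of 20 tested. Trophoblast markers were higher in 3 of 4, at 6.89 and 6.85 against 6.39 and 6.13, with Gata3 and Tfap2c leading. ES cell markers had a mean of 6.76 and 6.78 against 6.97 and 5.73, with overlap, and 3 of 4 were higher in SclKO. Pou5f1, the pluripotency factor that persists in early mesoderm, was at 10.01 and 10.09 against 9.26 and 7.79. Endoderm markers (5.57 and 5.29 against 5.82 and 5.67) and neural markers (4.80 and 4.62 against 5.08 and 5.75) had lower means in SclKO, but their members were mixed. Of 5 endoderm markers 3 were lower, Sox17 most (-1.16), and Apoa1 and Foxa2 were higher. Of 3 neural markers, Tubb3 (-1.69) and Sox1, dim on all 4 arrays, were lower and Pax6 was higher. In the longer lists with all arrays, 13 of 16 tested endoderm and 7 of 9 tested neural genes were higher. Macrophage markers (4.66 and 4.91 against 4.79 and 4.95) and feeder fibroblast markers (5.53 and 5.17 against 5.16 and 4.99) lay close together, and of these Adgre1, Lum and Col3a1 were dim on all 4 arrays. The part of these cells in the differences above was not tested.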

How the data were processed

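Per the labels' protocols, total RNA of sorted day 4 cells was hybridised to 6 Affymetrix mouse arrays, and the submitters' processing notes name RMA, affy and limma with no version. The authors deposited 1 normalised signal value per probe set and array. These signal values, as deposited, are not on a log scale and reach above 65535, the largest value a 16-bit scanner can give, on 1040 to 1153 probe sets per array, so their natural log was taken and both readings of its base are given. Of 45101 probe sets, 64 controls, 932 with several symbols and 9211 with none were left out, and 34945 stayed. The 9211 include some of the controls, so these groups overlap. Probe sets above the 40th percentile on at least 2 arrays were tested with limma 3.58.1 in R 4.3.3, with 1 mean per group over all 6 arrays (3 residual and 3.22 prior degrees of freedom) and Benjamini-Hochberg adjustment over all 23971. For lists, each gene was read through its probe set of highest mean.

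The members and lists were chosen with earlier results of these data known. Named by rule were Tal1, Kdr, called probe sets, the 12 largest differences in each direction at p under 0.01 without overlap, and up to 5 members per list with the largest differences without overlap. The other genes were chosen after their values were seen. The fit was tested on simulated data. Alternatives changed the filter, the choice of probe set, the scaling, the arrays used, the variance model, a replicate block and a chromosome median.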

Additional observations from a re-analysis of the deposited data

How the results depend on the processing

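Array number limits these results: with 2 arrays a group, 1 array can set a call, and a lone array is assumed to vary like the other groups. The main counts were 1 lower and 1 higher probe set at adjusted p under 0.05, and 543 and 466 at unadjusted p under 0.01. The adjusted counts were 1 and 2 with the 60th percentile filter or the mean of probe sets per gene (then 344 and 304 unadjusted), 0 and 1 with 1 probe set per gene (335 and 250), 20 and 13 with an intensity trend, and 61 and 6 with only the 4 arrays compared. Tal1, at -2.79 there, then passed (limma adjusted p = 0.0356). With a replicate block the counts were 3 and 2, and 717 and 785 unadjusted. Leaving out each array gave 0 to 317 lower and 0 to 985 higher, and 234 to 854 and 164 to 2138 unadjusted: the highest counts came without WT Scl+ replicate 1 and the lowest unadjusted counts without SclKO replicate 1. Deviations of same-numbered arrays correlated at 0.247 (SclKO and WT Scl+), 0.249 (SclKO and WT Scl-) and 0.254 (WT Scl+ and WT Scl-), a hint from the data. With 2 numbers, and no label that ties a number to a shared culture or day, whether they pair the arrays is not settled.

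Tal1 kept its direction without each array (-3.00 to -2.57) and Kdr did not (-0.35 to 0.14). With the 60th percentile filter medians were -1.97 for blood and endothelial transcription factors, -0.46 for macrophage genes, -0.65 for vascular receptors, -2.73 for Gimap genes, 0.22 for Notch, 1.05 for paraxial mesoderm, 0.99 for cardiac factors and -1.74 for Hox genes, over fewer genes. With the mean of probe sets they were -0.13 for the Scl complex, -0.26 for vascular receptors, 0.26 for VEGF, 0.19 for retinoic acid, 0.058 for imprinted genes, 0.089 for the cell cycle and -0.27 for glycolysis. With chromosome medians removed the Scl complex was at -0.25 and the cell cycle at -0.17.

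Without each array in turn, medians ranged from -0.28 to -0.13 for the Scl complex, -1.78 to -1.58 for blood and endothelial factors, -1.50 to -1.17 for early blood surface genes, -0.47 to -0.0081 for macrophage genes, -0.45 to -0.073 for vascular receptors, 0.059 to 0.29 for VEGF and 0.0023 to 0.33 for Notch. They ranged from 0.77 to 1.64 for streak genes, 0.52 to 0.93 for paraxial mesoderm, 0.41 to 1.07 for cardiac factors, 0.45 to 1.15 for mesenchymal genes, 0.070 to 0.43 for BMP, 0.21 to 0.83 for FGF and -0.20 to 0.28 for pluripotency. The other ranges were -0.14 to 0.17 for Hox genes, 0.13 to 0.23 for imprinted genes, -0.28 to -0.065 for glycolysis, -0.076 to 0.13 for matrix and 0.48 to 1.04 for guidance genes. Medians near 0 also changed sign without WT Scl+ replicate 2 for contractile genes (-0.055) and endoderm genes (-0.0023). The cause of these shifts was not tested.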

Other observations

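Pluripotency genes were higher in 10 and lower in 6 of 16 tested members of 21, with a median of 0.28. Without WT Scl+ replicate 2 this turned to 7 higher and 9 lower, with a median of -0.20. Endoderm and yolk sac genes were higher in 13 and lower in 3 of 16 tested members of 21, with a median of 0.29. Without that array there were 8 higher and 8 lower, with a median of -0.0023. Neural and ectoderm genes were higher in 7 and lower in 2 of 9 tested members of 15 (median 0.18), or in 6 and 3 without it (median 0.16). Of 4 tested Y-linked and X-inactivation genes, 2 were lower and 2 higher, and the Y-linked gene Kdm5d differed by -0.99, with all 3 of its probe sets lower.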
